A study of Mus musculus with 7 samples.

Results

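The sterol synthesis genes described here were 8 of the 18907 genes in the count tables: Idi1, Hmgcs1, Sqle, Fdps, Fdft1, Insig1, Sc5d and Cyp51. They were taken by gene name, whatever their level, and UMIs of each were found in all 7 plates. The tables came from single living cells sorted into 384-well plates from gastric epithelium isolated from unmodified, untreated C57BL/6 mice, 3 plates from the pylorus (the outlet region) and 4 from the corpus (the acid-secreting body). Each plate is 1 replicate of its region. Nothing in the labels says which plates came from separate mice, so every p-value rests on the spread between plates, which may be technical. The test (limma) takes part of that spread from all genes together. The labels give no age or sex.

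Cells make cholesterol from acetyl-CoA through the mevalonate pathway. HMG-CoA synthase (Hmgcs1) builds the precursor of mevalonate, isopentenyl diphosphate isomerase (Idi1) and farnesyl diphosphate synthase (Fdps) handle the isoprenoid units, squalene synthase (Fdft1) and squalene epoxidase (Sqle) commit them to sterols, and lanosterol demethylase (Cyp51) and sterol C5-desaturase (Sc5d) finish the ring. When membranes of the endoplasmic reticulum are poor in sterol, the transcription factor SREBP2 is released and raises transcription of these enzymes, while Insig1, itself a target, holds the SREBP escort protein back. In the stomach, parietal cells secrete acid from a large folded membrane, pit cells make surface mucus, neck cells make gland mucus and chief cells make pepsinogen.

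SREBP2 target promoters often carry a sterol regulatory element next to CCAAT boxes, so the 250 bases before the transcription start are shown for Hmgcs1, a classical sterol-regulated gene, and for Idi1 and Cyp51, on which the comparison of regions below turns. The sequences are from RefSeq (GRCm38.p6), 5′ to 3′ on the gene's strand. Capitals mark matches, on either strand, to TCACNCCAC (a sterol regulatory element core) or CCAAT (read as ATTGG on the other strand). No 2 matches overlap.
Hmgcs1: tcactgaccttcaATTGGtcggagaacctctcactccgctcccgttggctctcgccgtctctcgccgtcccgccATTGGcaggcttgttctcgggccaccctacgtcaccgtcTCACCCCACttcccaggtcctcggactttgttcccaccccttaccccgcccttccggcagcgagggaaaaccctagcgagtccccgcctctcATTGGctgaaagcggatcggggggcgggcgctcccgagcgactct
Idi1: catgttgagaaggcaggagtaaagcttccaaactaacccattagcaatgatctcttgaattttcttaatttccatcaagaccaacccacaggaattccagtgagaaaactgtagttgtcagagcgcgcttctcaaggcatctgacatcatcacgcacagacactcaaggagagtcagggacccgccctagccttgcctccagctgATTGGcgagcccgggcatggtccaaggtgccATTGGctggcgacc
Cyp51: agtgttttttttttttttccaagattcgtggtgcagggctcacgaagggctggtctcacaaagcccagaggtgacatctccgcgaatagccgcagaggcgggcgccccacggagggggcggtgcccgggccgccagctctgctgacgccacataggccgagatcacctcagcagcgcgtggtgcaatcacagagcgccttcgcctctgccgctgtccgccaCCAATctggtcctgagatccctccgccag
The windows are chr13:119690101-119690350 (plus strand) for Hmgcs1, chr13:8885356-8885605 (plus strand) for Idi1 and chr5:4104698-4104947 (minus strand) for Cyp51. Hmgcs1 held 1 TCACNCCAC match, which starts 137 bases before the transcription start, and 3 CCAAT matches, starting 237, 176 and 45 bases before it. Idi1 held 2 CCAAT matches, at 45 and 14 bases, and Cyp51 held 1, at 29 bases. Promoters were found for 5 of the 8 genes, and the other two, Insig1 and Sc5d, held 1 CCAAT match each. Of the 32851 RefSeq windows of this length, 1.05% held TCACNCCAC and 33.8% held CCAAT. A match is a run of letters, not a shown binding site. Only these patterns were searched, so a sterol regulatory element with other letters would not be marked.

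Of 2688 wells, 2235 held at least 1000 unique molecular identifiers (UMIs, the count of captured mRNA molecules) outside the spike-ins and were kept, 250 to 369 a plate. Levels are in CPM, the UMIs of a gene scaled to a common library total and then rescaled so that most genes match between samples, and each comparison was scaled on its own. The method reads the 3′ end once per molecule, so no length correction applies. The kept cells were clustered without these 8 genes, and 1904 cells in 14 clusters were named from markers as 7 classes; each name carries "-like" because it was rebuilt here. Among the unnamed clusters, 114 cells led by Cpa3, Tpsb2 and Mcpt2 and 19 cells led by Ccl5, Thy1 and Ms4a4b had immune markers and were not epithelial by their leading genes. The plates fell into sets: pylorus 1 and corpus 1 and 2 shared pit-, neck- and chief-like clusters that held few or no cells of pylorus 2 and 3 and corpus 3 and 4. Spike-in shares were 6.55% in pylorus 1, 0.272% and 0.268% in pylorus 2 and 3, 4.27% and 0.426% in corpus 1 and 2, and 0.259% and 0.256% in corpus 3 and 4. Results that rest on the sets are given by set.

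Across the 7 classes, 6 of the 8 genes had their highest mean level in proliferating- or pit-like cells, and Fdps and Fdft1 in tuft-like cells. By the same mean, Idi1, Sqle, Fdft1 and Cyp51 were lowest in chief-like cells. The classes were not held by the same plates, and for Fdft1 the neck-like mean was close, at 73.1 against 70.1 CPM. With plate as a term Fdft1 was lower in neck-like than in chief-like cells, short of the threshold (log2 -0.19, limma, adjusted p = 0.591). Which of these classes is lowest in Fdft1 is therefore not settled. All 8 genes were higher in proliferating-like cells than in the mean of the other classes, where 21% of the 11035 genes tested were called higher. The median log2 difference of the 8 was 1.33, against -0.07 over all genes. In pit-like cells 6 of the 8 were called higher, against 20.3% of all genes, with a median of 1.05 against 0.01. In chief-like cells 6 of the 8 were called lower, against 15.1% of all genes, with a median of -0.95 against -0.04. Each call is at an adjusted p under 0.05 (limma with plate as a term, Benjamini-Hochberg over all genes) on 39 sums of UMIs over the cells of 1 class on 1 plate, kept where there were at least 10 cells.

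**Figure D1:**
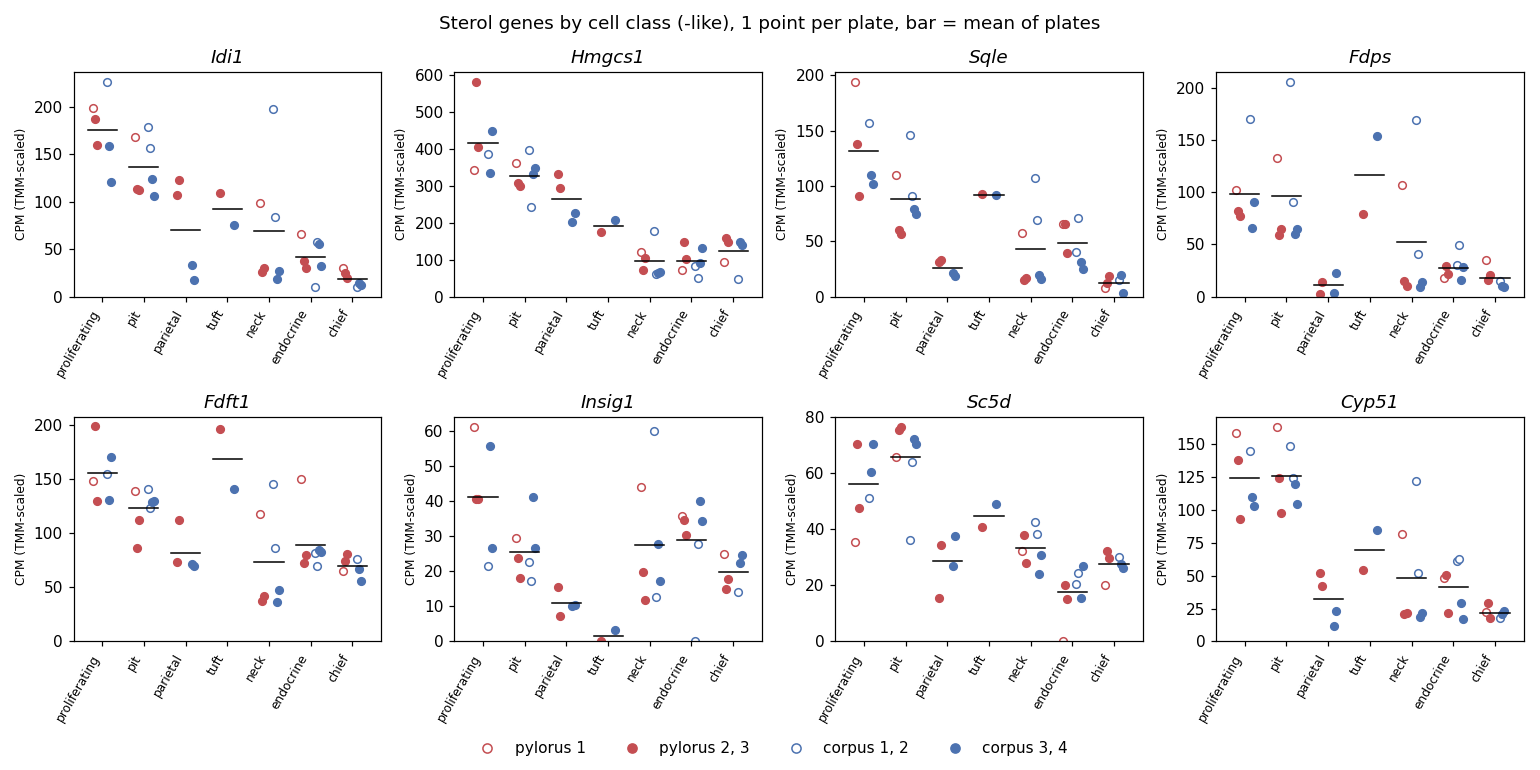
CPM of each of the 8 genes in each class, 1 point per plate with at least 10 cells of the class, pylorus plates left and corpus plates right. Open points are pylorus 1 and corpus 1 and 2, filled points the other 4 plates, and the bar is the mean of the plates. Idi1 lies between 120 and 226 CPM in proliferating-like cells and between 10.3 and 30.0 CPM in chief-like cells.

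Hmgcs1, which feeds the whole pathway, ran from 333 CPM through a median of 395 to 581 CPM over the 6 plates with proliferating-like cells. The lowest, median and highest of 7 plates were 243, 330 and 396 CPM in pit-like cells, and of 6 plates 47.4, 143 and 159 CPM in chief-like cells. No chief-like plate reached the lowest plate of either of the other two classes. Against the mean of the other classes, Hmgcs1 differed by 1.28 ± 0.15 on the log2 scale in proliferating-like cells (SE, adjusted p = 1.27e-08, limma) and by 1.04 ± 0.14 in pit-like cells (adjusted p = 2.5e-07).

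Next in the pathway are the isoprenoid enzymes. Idi1 had a lowest, median and highest plate of 120, 173 and 226 CPM in proliferating-like cells, 106, 123 and 178 CPM in pit-like cells, and 10.3, 17.0 and 30.0 CPM in chief-like cells. The log2 difference was 1.59 ± 0.31 in proliferating-like cells (adjusted p = 5.76e-05, limma) and -2.09 ± 0.31 in chief-like cells (adjusted p = 9.72e-07). Fdps averaged 97.7 ± 37.6 CPM in proliferating-like cells (SD, n = 6 plates), 96.5 ± 54.6 CPM in pit-like cells (n = 7) and 10.96 ± 9.62 CPM in parietal-like cells (n = 4). In parietal-like cells Fdps was lower than in the other classes by a log2 difference of -1.86 ± 0.35 (adjusted p = 5.01e-05, limma), on 39 UMIs in all.

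Sqle and Fdft1 commit the isoprenoid units to sterols. Sqle averaged 132 ± 39 CPM in proliferating-like cells (SD, n = 6), 88.3 ± 31.2 CPM in pit-like cells (n = 7) and 12.7 ± 6.4 CPM in chief-like cells (n = 6), with log2 differences of 1.57 ± 0.23, 0.79 ± 0.22 and -2.23 ± 0.23. Fdft1, squalene synthase, averaged 155 ± 27 CPM in proliferating-like cells, 123 ± 19 CPM in pit-like cells and 70.1 ± 9.0 CPM in chief-like cells. Its log2 difference was 0.67 ± 0.17 in proliferating-like cells (adjusted p = 0.00144, limma) and 0.27 ± 0.16 in pit-like cells, which did not pass (adjusted p = 0.18).

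Among the late enzymes, Cyp51 averaged 124 ± 26 CPM in proliferating-like cells, 126 ± 23 CPM in pit-like cells and 21.9 ± 4.2 CPM in chief-like cells. The differences from the other classes were 1.31 ± 0.22, 1.30 ± 0.20 and -1.38 ± 0.22 (adjusted p at most 5.47e-06, limma). Sc5d was highest in pit-like cells, at 65.8 ± 13.8 CPM, and averaged 56.0 ± 13.7 CPM in proliferating-like cells and 17.5 ± 8.8 CPM in endocrine-like cells. It was called lower in endocrine-like cells (-1.37 ± 0.24, adjusted p = 6.03e-06) but not in chief-like cells (-0.31 ± 0.25, adjusted p = 0.386).

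Insig1, the SREBP brake, is the one gene of the 8 that is no enzyme. It averaged 41.1 ± 15.6 CPM in proliferating-like cells (n = 6) and 29.1 ± 13.4 CPM in endocrine-like cells (n = 7), and was called higher in the first of these (log2 1.37 ± 0.34, adjusted p = 0.00111, limma). In chief-like cells, where 6 of the enzymes were lower, Insig1 averaged 19.9 ± 4.8 CPM and its difference was 0.20 ± 0.34 (adjusted p = 0.698), not called, as for Sc5d. Tuft-like cells gave a single Insig1 UMI over 2 plates and 23 cells, while Sqle, Fdps and Fdft1 were called higher there, at 92.1 ± 0.9, 116 ± 53 and 168 ± 40 CPM (SD, n = 2). In tuft-like cells 10.7% of all genes were called higher and 19.7% lower.

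In the remaining classes 3 to 5 of the 8 genes were called lower. Endocrine-like cells had 5 of 8 called lower (34.8% of all genes were), or 2 with total UMIs as the scale, and neck-like cells 4 of 8 (13.9%). Parietal-like cells had 3 called lower (20.2%), namely Sqle, Fdps and Cyp51, and 1 called higher (17.3%), Hmgcs1, at 263 ± 60 CPM against a mean of 208 CPM over the other classes (log2 0.51 ± 0.18, adjusted p = 0.024, limma). The parietal-like calls changed when a plate was left out: without corpus 3, corpus 4 or pylorus 2 they numbered 2 in place of 4, and Hmgcs1 missed the threshold without pylorus 2 (0.45, adjusted p = 0.0898) or pylorus 3 (0.40, adjusted p = 0.208).

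The scale mattered for some classes. With total UMIs in place of the rescaled totals, the 8 calls higher in proliferating-like cells, the 6 higher in pit-like cells and the 4 lower in neck-like cells kept their number, while the calls lower in chief-like cells became 7. In endocrine-like cells they became 2 lower and 1 higher, and in parietal-like cells 5 lower and 0 higher, Hmgcs1 being at 0.16 (adjusted p = 0.534). Tuft-like cells then had 5 higher and 1 lower. That scale moved the median log2 difference of all genes to -0.60 in chief-like, -0.40 in parietal-like, 0.27 in endocrine-like, 0.16 in tuft-like and 0.11 in proliferating-like cells. All genes then split into 596 higher and 5951 lower in chief-like cells, against 1876 and 1662 on the rescaled totals. The split was 1152 and 3659 against 1909 and 2230 in parietal-like cells, and 4561 and 2271 against 2840 and 3841 in endocrine-like cells. It was 3171 and 1901 against 2312 and 2588 in proliferating-like cells, and 2186 and 1227 against 1183 and 2177 in tuft-like cells. Pit-like cells had 1758 higher and 2278 lower against 2241 and 1989, and neck-like cells 1866 and 1269 against 1658 and 1537.

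Ordered by mean CPM over the plates that held each class, neighbouring classes mostly did not differ. With plate as a term some pairs turned against that order, none past the threshold. Examples are neck-like over chief-like for Fdft1 (log2 -0.19), parietal-like over chief-like for Sc5d (-0.14) and endocrine-like over neck-like for Insig1 (-0.12). Of the 48 neighbouring pairs (6 for each gene), 8 passed: pit-like above endocrine-like for Sqle and Fdft1, pit-like above neck-like for Fdps, tuft-like above neck-like for Cyp51, endocrine-like above chief-like for Idi1, parietal-like above chief-like for Sqle and above tuft-like for Insig1, and chief-like above endocrine-like for Sc5d. Proliferating- and pit-like cells were neighbours for 6 genes (all but Sqle and Insig1), and none of these pairs passed. The share of all genes that pass in such pairs was not counted, so these counts cannot be set against it.

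Other enzymes of the pathway were called in the same classes. Of 14 other sterol enzymes, all of them tested, 12 were called higher in proliferating-like cells, 9 higher in pit-like cells and 9 lower in chief-like cells, with median log2 differences of 0.90, 0.73 and -0.79. Over all genes these shares were 21%, 20.3% and 15.1%, and the medians -0.07, 0.01 and -0.04. With total UMIs as the scale the counts were 12, 6 and 14. Lbr, a sterol reductase that is also a nuclear envelope protein, averaged 142 ± 23 CPM in proliferating-like cells and 24.0 CPM over the other classes. In parietal-like cells 8 of the 14 were called lower and 2 higher, against 20.2% and 17.3% of all genes, or 9 and 1 with total UMIs. Dhcr7, a sterol reductase, was called higher there on both scales, at 32.5 ± 8.7 CPM against 17.8 CPM over the other classes on the rescaled totals.

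**Figure D2:**
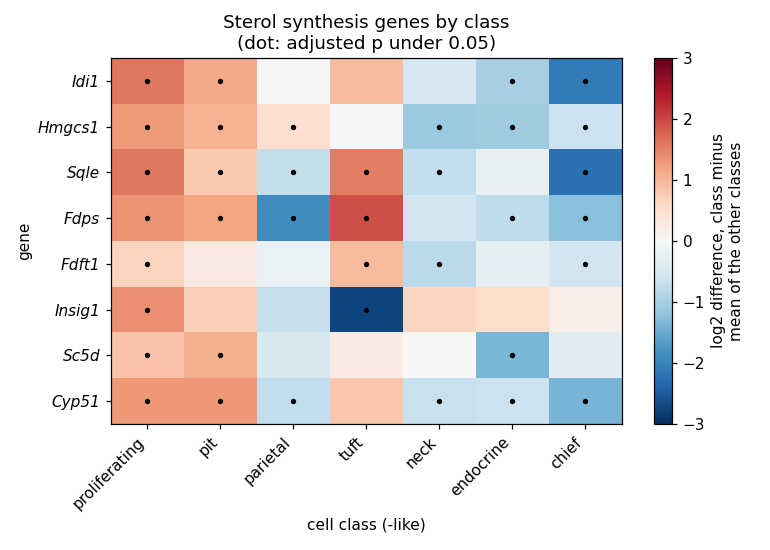
Log2 difference of each class from the mean of the other classes (colour) for the 8 genes, with a dot where the adjusted p was under 0.05. The proliferating-like column is called higher for all 8 genes, and the chief-like column lower for 6.

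Over the 39 sums, centred within each plate, the 8 genes followed each other to different degrees. Pearson's r over the 28 pairs ran from 0.11 (Fdft1 and Insig1) through a median of 0.69 to 0.87 (Sqle and Cyp51), as a description, since sums of 1 plate share a library and depth. Of 6238 other genes at 32 CPM or more in some class, the one closest to the mean of the 8 was Sc4mol (r = 0.91), an older symbol of the sterol methyl oxidase Msmo1, and the next was Mvk (r = 0.88), mevalonate kinase. The following 8 were Ppia, Psma5, Hsd17b12, Pcyt1a, Gpsm2, Ywhab, Cct2 and S100a10, with r between 0.85 and 0.87.

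Within neck-like cells, which fell into different clusters in the sets of plates, the level depended on the plate. Idi1 had 106, 27.9 and 31.7 CPM in pylorus 1, 2 and 3, against 214, 88.7, 19.2 and 28.7 CPM in corpus 1 to 4. Fdps had 115, 16.3 and 10.6 CPM in the pylorus plates, against 184, 43.4, 9.6 and 14.4 CPM in the corpus plates. Pylorus 1 and corpus 1 and 2 lay above the other 4 plates for both genes, and so they did for Sqle, Fdft1 and Cyp51: 5 of 8, against 9.95% of the 8215 genes tested in neck-like cells. Hmgcs1, Insig1 and Sc5d overlapped between the sets. In pit-like cells the same held for Idi1, Sqle, Fdps and Cyp51, 4 of 8, against 13.1% of the 9112 genes tested. Among the neck-like clusters, the 8 genes summed, without rescaling, to 1510 CPM in the 19 cells of corpus 1 led by Gkn3, Cldn2 and Aqp5. That was above the mean of 1398 ± 268 CPM in proliferating-like cells (n = 6 plates). Proliferating-like cells of corpus 1 itself summed to 1720 CPM, the highest of the 6 plates. The 8 genes summed to 796 ± 304 CPM in the other neck-like cluster of the first set (n = 3) and to 244 ± 30 CPM in that of the other 4 plates, and the class values pool these clusters. Among the pit-like clusters, they summed to 1221 ± 241 CPM in that of the first set (n = 3 plates, without rescaling). In the other 4 plates they summed to 925 ± 109 CPM in the cluster led by Ifit1, Lypd8 and 2210407C18Rik and to 696 ± 29 CPM in the cluster led by Aldh3a1 and Gkn1.

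**Figure D3:**
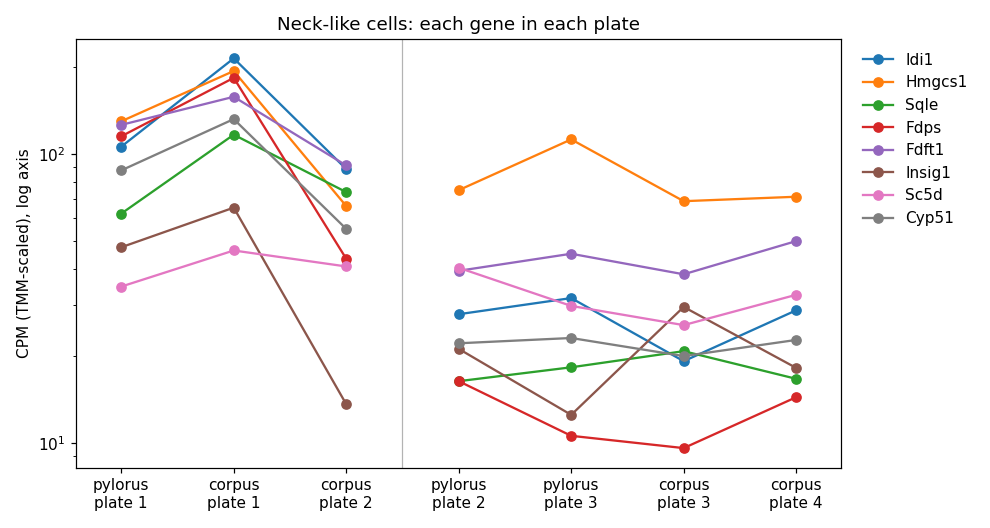
CPM of the 8 genes in neck-like cells of each plate, on a log axis, with pylorus 1 and corpus 1 and 2 left of the line and the other 4 plates right of it. Lines only join the points of 1 gene. Idi1 is at 88.7 to 214 CPM on the left and 19.2 to 31.7 CPM on the right.

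The comparison of regions asked whether parietal- or pit-like cells differ in these genes between pylorus and corpus. Parietal-like cells were identified by the proton pump: Atp4a, its catalytic subunit, reached 4366 and 4569 CPM in pylorus 2 and 3, against 3971 and 3855 CPM in corpus 3 and 4. They numbered 12 and 20 cells in pylorus 2 and 3, against 56 and 42 in corpus 3 and 4. The other 3 plates held 2 to 4 each and were not used. All 4 plates used belong to the same set. Of 8 genes, 7 had enough UMIs to be tested and 2 of these, Idi1 and Cyp51, were higher in the pylorus, where 3.24% of the 6860 genes tested were called higher.

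Idi1 stood at 83.8 and 93.6 CPM in parietal-like cells of pylorus 2 and 3, against 25.9 and 13.8 CPM in corpus 3 and 4. Both pylorus plates lay above both corpus plates, which was so for 25.8% of all genes tested. The difference was 2.11 ± 0.28 on the log2(CPM + 2) scale, or 4.32-fold, on 126 UMIs in the pylorus and 70 in the corpus (limma, adjusted p = 0.000319). More cells held it as well: 11 of 12 and 16 of 20 cells held an Idi1 UMI in pylorus 2 and 3 (91.7%, 95% Wilson interval 64.6 to 98.5, and 80%, 58.4 to 91.9), against 28 of 56 and 11 of 42 in corpus 3 and 4 (50%, 37.3 to 62.7, and 26.2%, 15.3 to 41.1). In chief-like cells, the class with the least Idi1, that share was 35.6% and 31.7% in the same pylorus plates and 27.5% and 22.2% in the corpus plates. Median depths in parietal-like cells were 37032 and 39487 UMIs in pylorus 2 and 3, against 39339 and 34143 in corpus 3 and 4. In chief-like cells they were 26858 and 29168 against 30674 and 35252. The intervals cover counting error only. With each cell thinned to 1000 UMIs, an Idi1 UMI was left in 1 and 3 cells of pylorus 2 and 3, against 1 and 0 cells of corpus 3 and 4, too few to compare. The cell richest in Idi1 held 14 of the 41 UMIs in pylorus 2 and 12 of the 85 in pylorus 3.

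Cyp51 was at 40.9 and 31.9 CPM in pylorus 2 and 3, against 8.8 and 17.9 CPM in corpus 3 and 4. The regions did not overlap, and the log2 difference was 1.38 ± 0.35, or 2.61-fold (limma, adjusted p = 0.0246), on 49 UMIs against 40. In corpus 3 Cyp51 lay under the filter on low counts, so it was tested only with the help of the pylorus plates, where it was high. The call does not allow for that selection. Cyp51 stayed called under each of the 10 alternatives that could test it, including no filter (limma, adjusted p at most 0.0301). A single cell gave 8 of the 20 UMIs in pylorus 2. Without corpus 3 the difference was 0.93 and did not pass (adjusted p = 0.362).

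The other genes of the pathway were not called. Hmgcs1, at 260 and 225 CPM in the pylorus plates against 154 and 175 CPM in the corpus plates, did not overlap but missed the threshold (log2 0.55 ± 0.16, limma, adjusted p = 0.053). It passed with total UMIs as the scale (0.87, adjusted p = 0.00294), which moved the median of all genes to 0.27 and their calls to 871 higher and 141 lower, against 222 and 264. Sqle stood at 24.5 and 25.3 CPM against 16.6 and 14.6 CPM (0.62 ± 0.32, adjusted p = 0.277), and Fdft1 at 57.3 and 85.9 CPM against 54.7 and 54.4 CPM (0.35 ± 0.23, adjusted p = 0.397). Sqle and Fdft1 did not overlap either. Both pylorus plates lay above both corpus plates for 25.8% of all genes tested. Fdps and Sc5d overlapped between regions, with differences of -0.45 ± 0.69 and -0.40 ± 0.36. Insig1 had 11 UMIs in the pylorus and 26 in the corpus and was not tested. Over the 7 genes tested the median was 0.55, against -0.02 over all genes.

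**Figure D4:**
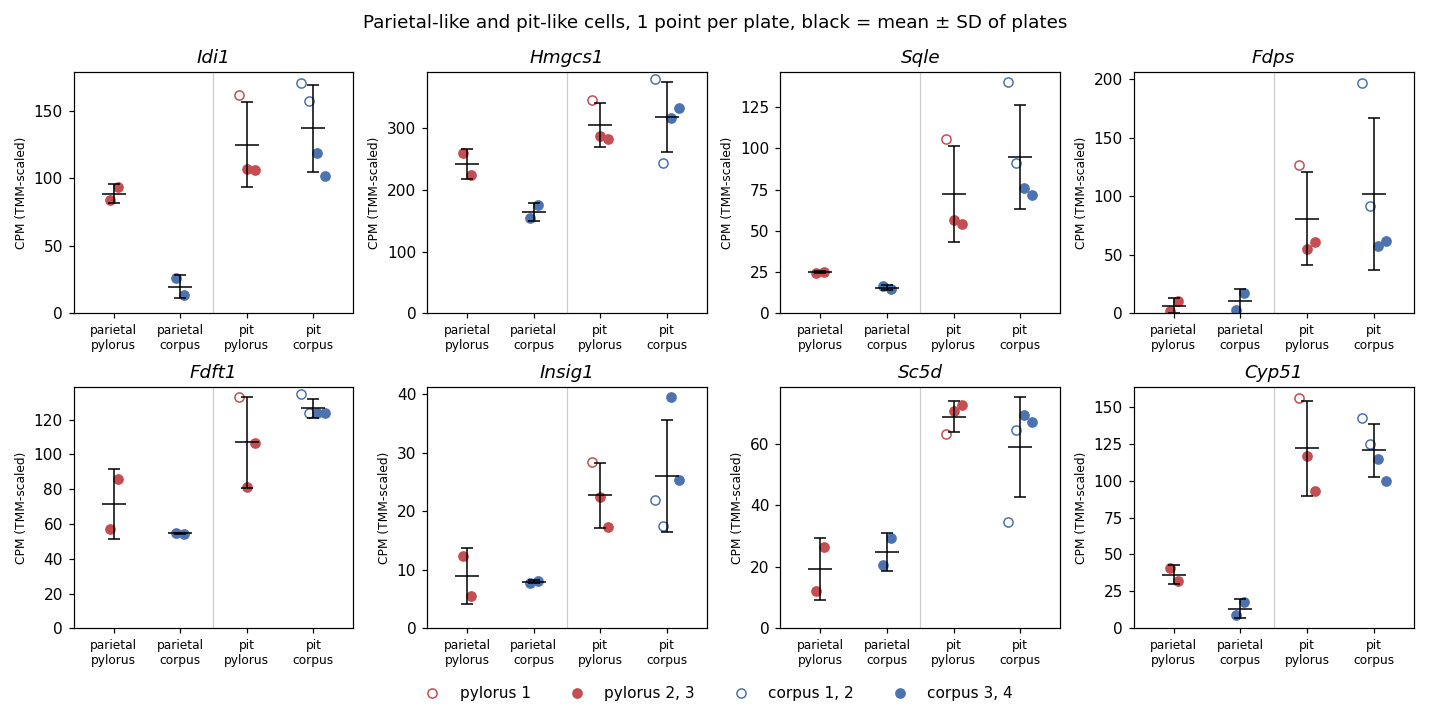
CPM of each gene in parietal-like and pit-like cells, pylorus left of corpus, 1 point per plate (open: pylorus 1 and corpus 1 and 2) with the mean ± SD of the plates in black. Idi1 and Cyp51, which were called, separate the regions in parietal-like cells, at 83.8 and 93.6 against 25.9 and 13.8 CPM for Idi1. Hmgcs1, Sqle and Fdft1 separate them too but were not called. All of these genes overlap between regions in pit-like cells.

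Of the genes tested in 5 lists around the pathway, 4 of 33 were called between regions in parietal-like cells, or 12.1%, against 7.08% of all genes. Of 14 other sterol enzymes, 8 were tested and none passed, although 7 were higher in the pylorus, with a median log2 difference of 0.56 and 1 at an unadjusted p under 0.05 (Sc4mol, 0.89 ± 0.29, limma adjusted p = 0.0718). Ebp, a sterol isomerase, averaged 36.3 ± 12.3 CPM in the pylorus and 22.8 ± 2.3 CPM in the corpus (SD, n = 2 each). Of 12 regulators, 9 were tested and 1 rose: Rnf139, a ubiquitin ligase of the sterol-regulated degradation pathway, with 44.6 ± 2.3 CPM in the pylorus and 20.7 ± 1.8 CPM in the corpus (log2 1.04 ± 0.27, adjusted p = 0.0277). Of 12 fatty acid synthesis genes, 4 were tested and none passed (limma, 1 at an unadjusted p under 0.05), the most abundant being Acly, at 50.3 ± 4.1 and 67.9 ± 4.9 CPM, and Fasn, at 34.6 ± 5.6 and 28.8 ± 9.7 CPM.

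Some genes fell. Of 12 genes for uptake, transport and storage, 8 were tested and 2 were lower, both exporters of cholesterol: Abca1 with 3 UMIs in the pylorus against 47 in the corpus, and Abcg1 with 1 against 41. Among 6 genes of the isoprenoid branch, 4 were tested and 1 was lower, Ggps1, which makes geranylgeranyl diphosphate from the same precursors, with 3 UMIs against 50. Lower calls made up 3.85% of all genes tested. The ratio of their pooled shares of UMIs, pylorus over corpus, was 0.189 for Abca1 (exact 95% interval 0.0376 to 0.587), 0.0722 for Abcg1 (0.00178 to 0.425) and 0.178 for Ggps1 (0.0354 to 0.55), with counting error only. The adjusted p-values of the 3 genes were 0.0244 to 0.0312 (limma). With 1 to 3 UMIs in the pylorus, these 3 genes passed the filter on low counts only through the corpus plates, where they were high. The calls, ratios and intervals do not allow for that selection, and the 3 genes are counted among the called list genes above.

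Other measures also moved with region in parietal-like cells. Genes of the mitochondrial genome took 31.2% and 27.5% of UMIs in pylorus 2 and 3, against 38.5% and 39.2% in corpus 3 and 4. All 20 of these genes that were tested were lower in the pylorus, 12 of them past the threshold, led in abundance by mtCytb, mtNd4 and mt-Rnr1. With the mitochondrial genes taken out of the scale, Idi1 and Cyp51 were called as before. Genes induced by tissue dissociation were higher for 10 of 12, with 1 call, the heat shock gene Hspa1b (log2 0.66 ± 0.18, adjusted p = 0.0398). Their median log2 difference was 0.57, and 8 of 12 were at an unadjusted p under 0.05 (limma), against 1466 of all 6860 genes tested. Without rescaling, they summed to 961 and 1201 CPM in pylorus 2 and 3, against 736 and 890 CPM in corpus 3 and 4, without overlap. The part of either in the result was not tested. Pit markers overlapped between regions: without rescaling, they summed to 18519 and 14506 CPM in pylorus 2 and 3, against 14945 and 23457 CPM in corpus 3 and 4, with 6 of 7 detected in the pylorus plates (Capn8 at 0) and 7 of 7 in the corpus plates. Proliferation markers, 10 of 10 detected everywhere, summed to 176 and 258 CPM against 148 and 154 CPM, without overlap. Endocrine markers summed to 1772 and 1768 CPM in pylorus 2 and 3, against 1073 and 1668 CPM in corpus 3 and 4, without overlap, with 7 of 10 detected in each pylorus plate, 9 of 10 in each corpus plate and Gast at 0 in all 4. Endothelial markers were lower in the pylorus plates, at 15.2 and 22.0 CPM against 30.8 and 32.7 CPM, with 1 to 2 of 4 detected and Cdh5 and Kdr at 0 in all 4. The part of these 3 lists in the result was not tested. Stromal and intestinal markers had 0 to 1 UMIs in each pylorus plate and 4 to 5 in each corpus plate. Chief markers, mostly pepsinogen transcripts, took 5.29% and 4.35% of UMIs against 4.62% and 5.53%.

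In pit-like cells no difference between regions was called for any of the 8 genes. Idi1 had 161, 107 and 106 CPM in pylorus 1 to 3, against 171, 157, 118 and 101 CPM in corpus 1 to 4. Hmgcs1 had 346, 288 and 283 CPM in the pylorus plates, against 380, 245, 317 and 332 CPM in the corpus plates. Cyp51 had 156, 117 and 92.7 CPM in the pylorus plates, against 142, 125, 115 and 99.8 CPM in the corpus plates. Over the 7 plates the regions overlapped for all 8 genes (4.36% of all genes did not overlap), the log2 differences ran from -0.40 ± 0.29 (Sqle) to 0.26 ± 0.25 (Sc5d), and none reached an unadjusted p of 0.05 (limma). Only 1 of the 9112 genes tested was called, 0.011%. In the 4 plates that also served for parietal-like cells, 2.74% of the 8858 genes tested were called and again none of the 8. There the regions did not overlap for 5 of the 8 genes, against 42.6% of all genes: Hmgcs1, Sqle, Fdft1 and Insig1 were lower in both pylorus plates than in both corpus plates, and Sc5d higher. Sqle, Fdft1 and Insig1 were at an unadjusted p under 0.05 (log2 -0.39 ± 0.15, -0.40 ± 0.14 and -0.62 ± 0.22, limma, adjusted p = 0.188, 0.12 and 0.142), where 6.41% of all genes were at such a p and lower. Of the 14 other sterol enzymes, 12 were lower in the pylorus over the 7 plates and none passed. In the 4 plates 1 of them was called lower, against 1.14% of all genes. The most abundant of the list were Sc4mol, at 110 ± 36 CPM in the pylorus and 135 ± 21 CPM in the corpus, and Ebp, at 81.3 ± 3.1 and 92.2 ± 19.7 CPM.

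The difference between classes was tested directly. In the 4 plates shared by both, the region difference of Idi1 was larger in parietal-like than in pit-like cells by 2.15 ± 0.36 on the log2 scale (limma, adjusted p = 0.0029, where 0.869% of 10475 genes were called). It was also larger than in the other 4 classes, compared after the result for pit-like cells had been seen. The gap was 1.83 to neck-like cells (adjusted p = 0.00848, with 1.07% of genes called) and 1.49 to chief-like cells (adjusted p = 0.0422, 1.14%). It was 2.45 to endocrine-like cells (adjusted p = 0.000354, 2.4%) and 1.83 to proliferating-like cells (adjusted p = 0.0072, 2.48%). The comparison with pit-like cells missed the threshold without corpus 4 (1.81, adjusted p = 0.0583), without pylorus 2 (2.26, 0.105) or without pylorus 3 (2.03, 0.108). In the same way the comparison with neck-like cells passed only without corpus 3 (adjusted p = 0.0116, otherwise 0.152 to 0.335). That with chief-like cells did not pass with any 1 of the 4 left out (0.0632 to 0.344). That with proliferating-like cells passed without corpus 3 or 4 but not without pylorus 2 (0.103) or 3 (0.13), and that with endocrine-like cells without any 1 of the 4 (at most 0.0499). For Cyp51 the difference from pit-like cells was 1.43 ± 0.40 and did not pass (adjusted p = 0.0989), and no other gene of the 8 passed in any of the 5 comparisons.

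Elsewhere no gene of the 8 was called between regions. In chief-like cells Idi1 had 19.8, 15.8 and 12.3 CPM in pylorus 1 to 3, against 6.5, 9.3 and 7.9 CPM in corpus 2 to 4, and Fdps had 23.1, 10.1 and 13.3 CPM against 9.5, 6.8 and 5.6 CPM. The regions did not overlap for these 2 genes, which was so for 8.28% of all genes tested, and both were at an unadjusted p under 0.05 but at an adjusted p of 0.997 (limma, Idi1 0.85 ± 0.30, Fdps 0.87 ± 0.36, on 61 and 56 UMIs against 31 and 32). Of all genes tested, 0% were called in chief-, endocrine- and proliferating-like cells and 0.0365% in neck-like cells. In neck-, endocrine- and proliferating-like cells none of the 8 reached an unadjusted p of 0.05 (limma), and the median differences were -0.25, 0.25 and 0.13.

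**Figure D5:**
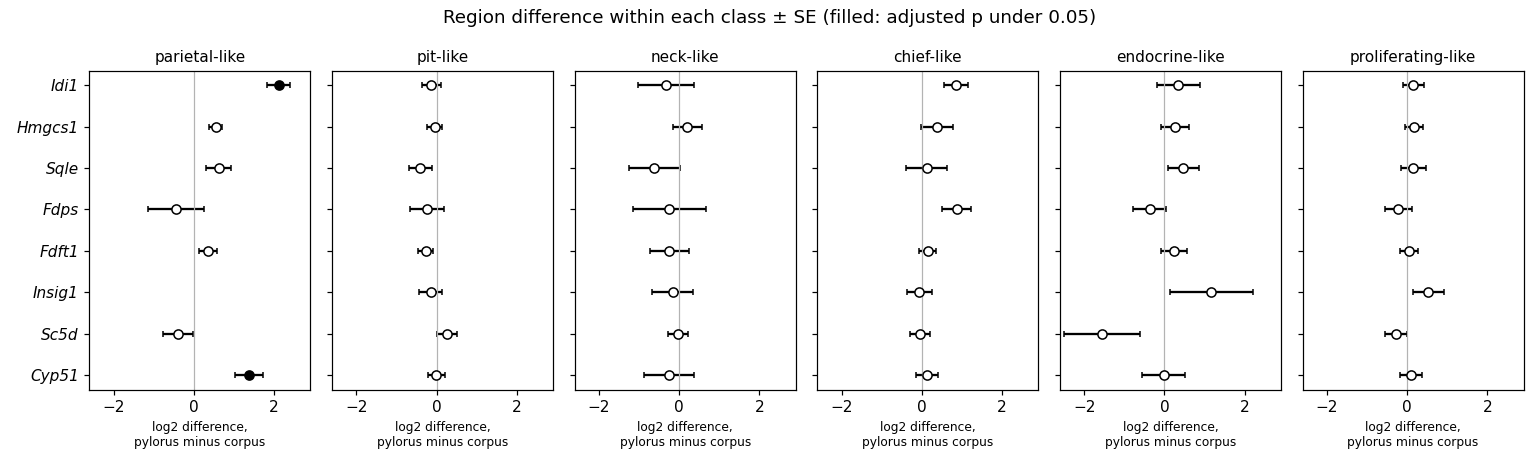
Log2 difference, pylorus minus corpus, ± SE for each gene in each of 6 classes, with filled points where the adjusted p was under 0.05. Idi1 (2.11) and Cyp51 (1.38) in parietal-like cells are the filled points, and Insig1 has no point there because it was not tested.

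Cells outside the named classes held the genes too. A cluster of 188 cells led by Slc1a3, Dtl and Hells summed to 511 ± 72 CPM over the 8 genes (n = 4 plates), and a cluster led by the mast cell proteases Cpa3, Tpsb2 and Mcpt2 to 189 ± 25 CPM (n = 4). On the same scale, without rescaling, proliferating-like cells summed to 1398 ± 268 CPM (n = 6). Both clusters had no class name.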

How the data were processed

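Each plate came as a table of UMI counts per gene and well, as the authors deposited it, in whole numbers and not normalized. The submitters' processing notes name genome build mm9; the aligner, the counter and their versions are not named there. RefSeq promoters are on GRCm38.p6, and no coordinates of the authors' files were used. The 8 genes, the lists and the tests were chosen with earlier results of these data known.

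Plates held 2646492 to 9511078 UMIs. Spike-in rows were set aside, and the 2235 wells with at least 1000 UMIs were scaled to 10000, reduced to 2000 variable genes (leaving out the 64 genes of the sterol and lipid lists and all genes of chrM) and 30 components, and clustered (scanpy 1.11.5, 15 neighbours, Leiden at resolution 1.0). A cluster was named from at least 3 markers found in 25% of its cells, with a mean log2 fold of at least 0.5. No doublet caller was run; cells were sorted singly, per the labels' protocols. No 2 kept wells held identical counts. Of Idi2, the paralog of Idi1, 8 UMIs were found against 3789 of Idi1.

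Counts were summed per plate and class (at least 10 cells), filtered at about 10 counts per sum, scaled by trimmed means of log ratios and tested as log2(CPM + 2) with limma 3.58.1 in R 4.3.3. A fold on this scale understates the change of low genes. The variance of each gene was drawn partly from all genes. For regions in parietal-like cells, 2 degrees of freedom came from the plates and 14.1 from all genes. For the region differences between classes they were 10 and 15.3, with the spread pooled over the classes. A count model, listed as an alternative, was not run. The fits were tested on simulated data. Genes named outside the 8 were those called in a list (at most 6), else its 2 most abundant, and the 10 most like the mean of the 8; some genes are not reported here. All features of chrM were read as mitochondrial, whatever their prefix. The other enzymes named in the comparison of classes, and Sc4mol in parietal-like cells, were chosen after their values were seen. Alternatives covered scale, pseudocount, filter, depth, cluster resolution, plates left out and the replicate number; the total-UMI counts of the other sterol enzymes, and plates left out against classes other than pit-like, were added after seeing the data.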

Additional observations from a re-analysis of the deposited data

Results flagged for a closer look

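The region difference of Idi1 in parietal-like cells differed from that in each of the other 5 classes by a test of the difference itself (limma, interaction): by 2.15 on the log2 scale against pit-like, 1.83 against neck-like, 1.49 against chief-like, 2.45 against endocrine-like and 1.83 against proliferating-like cells. With 1 of the 4 plates left out, the comparison with endocrine-like cells passed each time. Leaving out pylorus 2 or pylorus 3 ended each of the other 4 (adjusted p 0.103 to 0.344), leaving out corpus 4 ended those with pit-like (0.0583), neck-like (0.335) and chief-like cells (0.321), and leaving out corpus 3 ended that with chief-like cells (0.0632). In parietal-like cells Idi1 was higher in both pylorus plates than in both corpus plates. The 5 comparisons share the parietal-like sums, and the last 4 were added after the first had been seen.

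In 24 groups of 4 corpus plates, 1 plate stood far from the rest in 3, all of them corpus 1. About 1 in 20 such groups stands out by chance. Hmgcs1 in neck-like cells was at 194 CPM in corpus 1 and at 66.0 to 71.1 CPM in the other 3 plates, Fdft1 in pit-like cells at 135 CPM against 123.6 to 123.9 CPM, and Sc5d in pit-like cells at 34.6 CPM against 64.5 to 69.5 CPM. Corpus 1 had the lowest median depth of the corpus plates, at 6899 UMIs a cell, and its 19-cell neck-like cluster led by Gkn3, Cldn2 and Aqp5 held no cell of another plate. The part of either in these values was not tested.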

How the results depend on the processing

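Of 751 recomputed values, 644 were labelled as the same. For a difference this means that direction and side of the threshold were kept, and for a count of genes that it stayed close to the first count. Idi1 in parietal-like cells passed under each of the 10 alternatives that could test it (log2 1.96 to 2.41, adjusted p at most 0.000681) and without each plate (1.68 to 2.51). Thinning every cell to 1000 UMIs left 4 parietal-like cells with an Idi1 UMI in the pylorus and 1 in the corpus, and the calls then numbered 0 for parietal-like cells, 0 for parietal- against pit-like cells, 1 for parietal-like, 1 for pit-like and 2 for proliferating-like cells against the other classes, the last added after seeing the data; thinning leaves fewer counts by construction. Where leaving out a plate left 1 in a region, that plate was assumed to vary like the others. Without 1 plate, 1 to 4 genes were called in parietal-like cells (1 without corpus 3, 4 without pylorus 3), 0 in pit-like cells, 0 to 1 for parietal- against pit-like cells, and 2 to 5, 6 to 7 and 8 for parietal-, pit- and proliferating-like cells against the others. With total UMIs as the scale, 2 genes were called for parietal- against pit-like cells, and at Leiden resolution 2.0, 2 in parietal-like cells against the others. The shares of all genes called in those 2 fits are not given here. Nor are they given for comparisons between classes with thinning or without 1 plate. The counts of the 8 genes there cannot be set against them. Over all genes, 486 were called in parietal-like cells, 35 with thinning, 1012 with total UMIs (871 higher and 141 lower, against 222 and 264) and 142 to 1380 without 1 plate. The cause of the other changes was not tested.

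These differences turned sign. None was past the threshold before turning or at the turned value, except Fdft1 in proliferating-like cells, which passed before thinning. That covers no other value in the ranges below. The voom fit put Fdps in parietal-like cells at 0.37. In pit-like cells Cyp51 was at 0.0021 (median-of-ratios scale), 0.016 (no filter) and 0.0014 (cells of at least 3000 UMIs), Hmgcs1 at 0.37 (thinned) and Sc5d at -0.019 (resolution 2.0). In pylorus 1 and corpus 1 and 2 alone, added after seeing the data, Hmgcs1, Fdft1, Insig1 and Cyp51 were at 0.17, 0.037, 0.49 and 0.22. Thinning gave -0.58 for Hmgcs1 in parietal- against pit-like cells, 0.35 and -0.14 for Fdft1 in parietal- and proliferating-like cells against the others, and resolution 2.0 gave 0.0075 for Idi1 in parietal-like cells against the others. Without 1 plate, the range crossed 0 in parietal-like cells for Fdps (-1.48 to 0.55) and Sc5d (-0.88 to 0.096). The range also crossed 0 in pit-like cells for Hmgcs1 (-0.17 to 0.053), Fdps (-0.59 to 0.14), Cyp51 (-0.18 to 0.17) and Insig1 (-0.30 to 0.054), between parietal- and pit-like cells for Fdps (-1.43 to 0.52) and Sc5d (-1.003 to 0.024), and for Idi1 in parietal-like cells against the other classes (-0.46 to 0.37).

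The labels number plates 1 to 4 in the corpus and 1 to 3 in the pylorus. Same-numbered plates deviated together with r = 0.50, -0.18 and 0.41 in pit-like cells. Plates numbered 1 lie in the same set, as do plates numbered 3, while corpus 2 and pylorus 2 lie in different sets. These values therefore cannot tell pairing by number from the sets, and the numbers were not taken to pair plates. With a replicate block 0 of the 8 genes were called in pit-like cells, and 2 of all genes. For parietal-like cells no paired analysis was possible because the regions share 1 replicate number. The alternative count model was not run. With 12 and 20 parietal-like cells in the pylorus, depth limited the genes that could be tested there.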
